A study of Mus musculus with 2 samples.

Results

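Mast cells store serine proteases and a carboxypeptidase in their granules. The 7 genes described here encode some of those of the mouse: the chymases Mcpt1, Mcpt2, Mcpt4 and Cma1, the tryptases Tpsb2 and Tpsab1, and the carboxypeptidase Cpa3. They were chosen by symbol from the 32285 genes counted, and all 7 were measured in both libraries. Single cells came from colon tumours of mice given azoxymethane, a carcinogen, and dextran sulfate sodium, which injures the colon lining (AOM/DSS). One library carries the label Gsk3b (IEC+/+) and the other Gsk3b (IEC-/-), which names the loss of the kinase gene Gsk3b from intestinal epithelial cells. Both groups received AOM/DSS, and each is 1 library, 10x Genomics 3′ chemistry v3, so no difference between them has a replicate check. The Cre line, the ages, the sex, the times of treatment and the number of animals pooled are not given in the sources used here. Mast cells were taken as cells with 1% or more of their UMIs (unique molecular identifiers, 1 per captured RNA molecule) in Cpa3, Mcpt1 and Mcpt2 together. This gave 142 of 9908 cells in the library labelled IEC+/+ and 56 of 10568 in the library labelled IEC-/-, 198 of 20476 in all. The rule used those 3 genes, so their height in mast cells is a description, whereas Mcpt4, Cma1, Tpsb2 and Tpsab1 played no part in it.

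Mouse mast cells are classed by where they sit and by the proteases they hold. Mucosal mast cells of the gut lining are known for the chymases Mcpt1 and Mcpt2, and expand in inflammation and worm infection under T cell and TGF-beta signals. Connective-tissue mast cells of skin, peritoneum and submucosa are known for the chymase Mcpt4, the elastase-like chymase Cma1 (also called Mcpt5), the tryptases Tpsb2 (Mcpt6) and Tpsab1 (Mcpt7), and Cpa3, bound in the granule to heparin on the proteoglycan serglycin. Chymases cut after aromatic residues, tryptases after lysine and arginine, and carboxypeptidase A3 trims C-terminal residues.

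In the mouse reference (GENCODE vM21, build GRCm38) the 4 chymase genes lie within 120.863 kb of chromosome 14. Cma1 spans 55941451 to 55944675 on the minus strand, Mcpt1 56017971 to 56020384 on the plus strand, Mcpt2 56042041 to 56044642 on the plus strand, and Mcpt4 56059629 to 56062313 on the minus strand. The tryptases share 25.854 kb of chromosome 17, Tpsab1 from 25343245 to 25345562 on the minus strand and Tpsb2 from 25366305 to 25369098 on the plus strand. Cpa3 lies apart on chromosome 3, 20215620 to 20242181 on the minus strand, and overlaps the microRNA gene Mir7007. Reads of a 3′ library fall near the transcript end, where close relatives can share sequence. Windows of 50 bases were taken from the last 300 bases of each gene's longest transcript, and the ends of any other transcripts were not examined. None was shared with another gene for Mcpt1, Mcpt2, Cpa3, Tpsb2 and Tpsab1. For Mcpt4, 4.78% of windows also occurred in Cma2, and for Cma1, 16.7% also occurred in Gm48934, which is not among the genes counted. How far this moves the UMI counts of Mcpt4 and Cma1 was not tested. Over those 300 bases Mcpt1 and Mcpt2 were 67.0% identical, and Tpsb2 and Tpsab1 56.3%.

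The RefSeq promoter table (GRCm38.p6) matched 4 of the 7 genes, and those 4 are printed because they include a mucosal and a connective-tissue chymase that are near copies upstream. Each runs from 250 bases before to 50 after the start of the gene, 5′ to 3′ on the gene's strand, with the letters of any motif match in capitals. The first motif searched was GATAA, whose form on the other strand is written TTATC here. The other motif searched, on both strands as well, was the TATA box sequence TATAAA, which reads in the opposite direction as TTTATA on this strand. No matches overlap each other in these 4 sequences.
Mcpt1, chr14:56017714-56018013 (plus strand): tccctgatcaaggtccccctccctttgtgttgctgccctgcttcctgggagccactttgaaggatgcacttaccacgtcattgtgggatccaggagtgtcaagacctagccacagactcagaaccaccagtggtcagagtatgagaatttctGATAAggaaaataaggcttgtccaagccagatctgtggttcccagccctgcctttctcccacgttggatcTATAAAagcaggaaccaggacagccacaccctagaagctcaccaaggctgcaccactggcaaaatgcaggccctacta
Mcpt4, chr14:56062261-56062560 (minus strand): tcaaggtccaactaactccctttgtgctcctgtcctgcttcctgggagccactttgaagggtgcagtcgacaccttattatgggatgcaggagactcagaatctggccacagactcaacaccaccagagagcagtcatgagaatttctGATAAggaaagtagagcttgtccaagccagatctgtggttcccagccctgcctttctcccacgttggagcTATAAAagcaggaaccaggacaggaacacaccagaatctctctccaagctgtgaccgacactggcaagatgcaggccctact
Cma1, chr14:55944626-55944925 (minus strand): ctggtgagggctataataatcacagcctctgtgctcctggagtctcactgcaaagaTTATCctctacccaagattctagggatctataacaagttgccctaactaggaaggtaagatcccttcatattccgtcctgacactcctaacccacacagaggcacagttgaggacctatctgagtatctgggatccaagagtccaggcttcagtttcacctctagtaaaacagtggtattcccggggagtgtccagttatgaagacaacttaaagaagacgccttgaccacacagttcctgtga
Cpa3, chr3:20242132-20242431 (minus strand): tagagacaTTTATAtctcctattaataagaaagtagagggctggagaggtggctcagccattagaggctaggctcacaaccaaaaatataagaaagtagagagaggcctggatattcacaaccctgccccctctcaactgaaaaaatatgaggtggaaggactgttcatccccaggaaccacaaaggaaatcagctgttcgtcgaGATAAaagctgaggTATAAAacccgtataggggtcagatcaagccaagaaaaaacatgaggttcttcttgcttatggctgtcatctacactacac
The Mcpt1 and Mcpt4 promoters were 83.0% identical, against 55.0% for Mcpt1 and Cma1 and 49.7% for Mcpt1 and Cpa3. GATAA, the core of the sites that GATA factors such as Gata2 bind, began at -98 from the start in Mcpt1, -102 in Mcpt4 and -45 in Cpa3, and Cma1 held its reverse TTATC at -194. Either form occurs in 25.4% of the 32851 promoters of this length. The TATA box sequence began at -28 in Mcpt1, -32 in Mcpt4 and -31 in Cpa3, with a further reverse match at -242 in Cpa3. It was not found in the Cma1 window, and either form occurs in 13.6% of the promoters. A match is a run of letters and not a measured site.

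The libraries held 164574326 (labelled IEC+/+) and 156641780 (labelled IEC-/-) UMIs, with median depths of 5164 and 3413.5 UMIs per cell, and 35 called barcodes occurred in both. Gsk3b itself was counted at 262.5 CPM (the UMIs of a gene divided by all UMIs of those cells and scaled as counts per 1e6; exact Poisson 95% interval 259.4 to 265.7) in epithelial cells labelled IEC+/+ and at 240.5 (237.4 to 243.6) in those labelled IEC-/-. A UMI of Gsk3b was present in 82.5% and 83.7% of those cells. The 3′ tag checks the label only if the deleted part covers it, which the sources used here do not say, so every direction below is between libraries by their labels. All intervals cover counting error only. The 5 mast cell markers outside the 7 proteases summed to 2692 and 2571 CPM in the mast cells, against 49.98 and 22.96 in free RNA (barcodes under 100 UMIs), and all 5 were detected in both libraries.

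Mast cells made up 1.43% of cells labelled IEC+/+ (exact Clopper-Pearson interval 1.21% to 1.69%) and 0.530% of cells labelled IEC-/- (0.401% to 0.688%), a 2.70-fold lower share. The log2 ratio was -1.44 (-1.91 to -0.98). Their depth was similar, with medians of 3134 and 3440 UMIs per cell. The median mast cell gave 12.2% of its UMIs to the 3 genes of the rule in the first library and 9.44% in the second. The lowest cells inside the rule were at 1.14% and 1.20%, and the highest outside at 0.984% and 0.857%. Between 0.5% and 1% lay 18 and 4 cells, so the count of cells near the threshold was small beside the 142 and 56. All 7 proteases together took 15.1% and 12.4% of all mast cell UMIs. A further 12 and 5 barcodes that met the rule had been removed as doublets. A smaller share of cells can come from fewer mast cells or more cells of other kinds, and these cannot be told apart here.

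Mcpt1 and Mcpt2, the mucosal chymases, were the highest of the 7 in both libraries. A 3′ library counts 1 tag per molecule, so CPM can be set side by side between genes without a length correction. Mcpt1 stood at 79416 CPM (78722 to 80113) over mast cells labelled IEC+/+ and at 63642 (62687 to 64607) labelled IEC-/-. A UMI of it was found in 142 of 142 cells and in 54 of 56. Mcpt2 stood at 59660 CPM (59060 to 60265) and 51482 (50624 to 52350), in 141 and 54 cells.

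Both genes varied widely from cell to cell. The Mcpt1 level per cell had quartiles of 37193, 66130 and 99548 CPM labelled IEC+/+, with a highest cell at 199659. In cells labelled IEC-/- the quartiles were 24296, 44257 and 77072 and the highest cell was at 124848, so the distributions overlapped over most of their range. Mcpt1 exceeded Mcpt2 in 100 of 142 cells and in 38 of 56, and made up a median of 59.0% and 61.3% of a cell's mucosal UMIs. The 5 cells with the most Mcpt1 UMIs held 23.0% of them in the first library and 42.3% in the second, so the sums of the second rest on fewer cells.

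Cpa3, the carboxypeptidase found in all mast cells, was present in 141 of 142 and 55 of 56 cells. It stood at 5227 CPM (5050 to 5408) labelled IEC+/+ and 3945 (3710 to 4190) labelled IEC-/-. Its quartiles per cell were 3493, 5555 and 8820 CPM, and 2662, 4184 and 6007 CPM. By sum it lay below both mucosal chymases and above each of the connective-tissue proteases in either library.

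**Figure D1:**
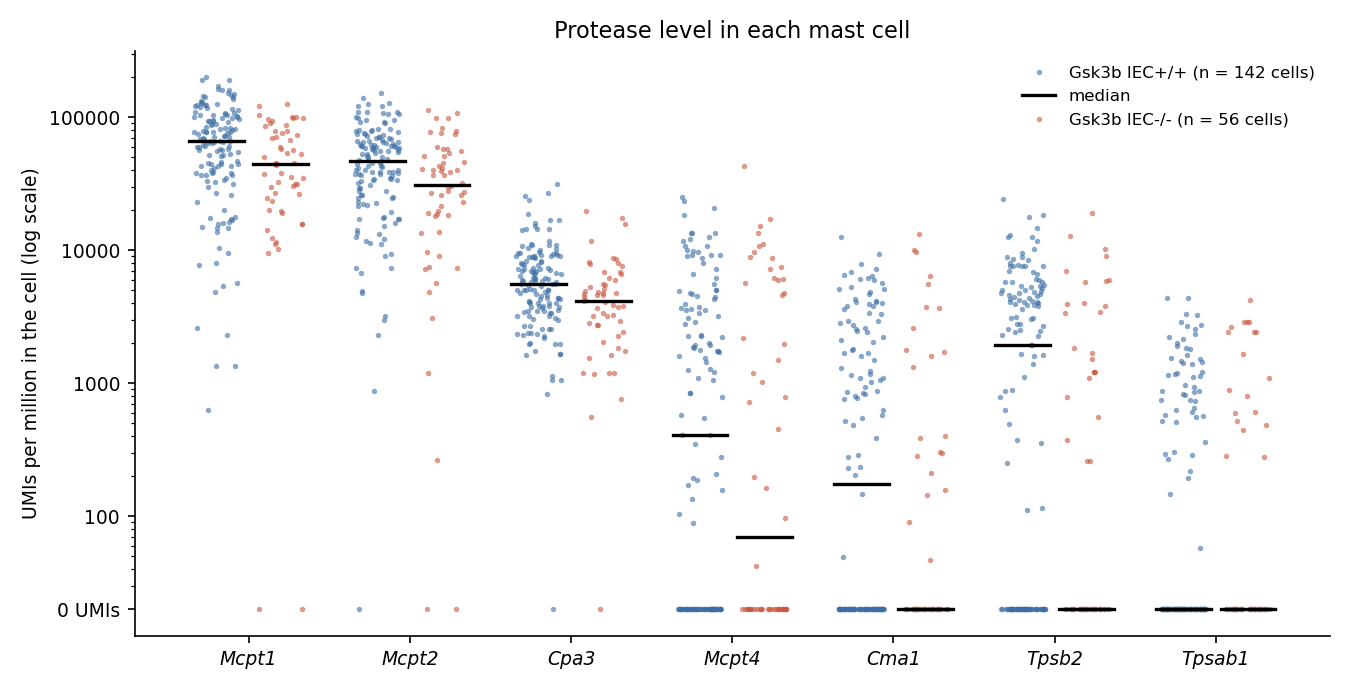
CPM of each protease (log scale, cells without a UMI on the bottom line) in each mast cell of the 2 libraries, with the median as a bar. Mcpt1, Mcpt2 and Cpa3 fill nearly every cell. Mcpt4, Cma1, Tpsb2 and Tpsab1 run from no UMI in many cells through low levels to high ones.

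The 4 connective-tissue proteases were all present, each in part of the cells. Mcpt4 had a UMI in 57.7% of mast cells labelled IEC+/+ (49.2% to 66.0%) and 51.8% labelled IEC-/- (38.03% to 65.34%), and summed to 2349 CPM (2231 to 2472) and 2751 (2555 to 2958). Its median cell held 408.4 CPM and 69.6 CPM, in the opposite order to the sums. The 5 cells with the most Mcpt4 held 29.9% of its UMIs labelled IEC+/+ and 56.2% labelled IEC-/-, and the highest cells were at 25091 and 43135 CPM.

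Cma1 had a UMI in 51.4% of cells labelled IEC+/+ (42.9% to 59.9%) and 39.3% labelled IEC-/- (26.5% to 53.2%), and summed to 1411 CPM (1320 to 1507) and 968.3 (853.7 to 1094). Its highest cells reached 12635 and 13228 CPM, while the median was 174.9 in the first library and no UMI in the second.

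Tpsb2, the main tryptase of connective-tissue mast cells, had a UMI in 61.3% of cells labelled IEC+/+ (52.7% to 69.3%) and 44.6% labelled IEC-/- (31.3% to 58.5%). It summed to 2647 CPM (2521 to 2777) and 1133 (1009 to 1269), with a median cell at 1939 CPM in the first library and at no UMI in the second. Tpsab1, the second tryptase, was the lowest of the 7 at 506.2 CPM (452.3 to 564.8) and 341.5 (275.0 to 419.3). It had a UMI in 38.7% and 33.9% of cells, and its median cell had none in both libraries.

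Most mast cells by the rule held some of the 4 connective-tissue proteases. The rule asks for mucosal UMIs in nearly every cell, and all 142 and 56 had some, so finding both kinds together was set beforehand. At least 1 UMI of the 4 was present in 81.0% of mast cells labelled IEC+/+ (115 of 142; 73.6% to 87.1%) and in 75% labelled IEC-/- (42 of 56; 61.6% to 85.6%). The same share in T cells, which lack these proteases, was 4.77% and 3.03% at median depths of 3522 and 3268 UMIs, close to those of mast cells. With every cell thinned to 1000 UMIs it was 74.6% and 68.2% in mast cells (24 and 12 shallower cells left out) and 2.18% and 0.402% in T cells (18 and 14 left out). All 4 genes had a UMI in 33 and 9 mast cells, and none of the 4 in 27 and 14.

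Set at 0.5% of a cell's UMIs for each sum, 76 of 142 cells labelled IEC+/+ (53.5%; 45.0% to 61.9%) carried both the mucosal and the connective-tissue sum. In the library labelled IEC-/- 20 of 56 cells did (35.7%; 23.4% to 49.6%), and these intervals overlap. The mucosal sum alone reached the level in 65 cells (45.8%) and 35 cells (62.5%). Only 1 cell in each library reached it for the connective-tissue sum alone. The mast cell rule leaves almost no room for a cell below it for both sums, and none was found. Of the 11 and 7 cells of the mast cluster outside the rule, described next, 5 and 4 were below it for both. At a level of 0.2% the cells with both sums were 67.6% and 42.9%, and at 1% they were 36.6% and 23.2%.

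**Figure D2:**
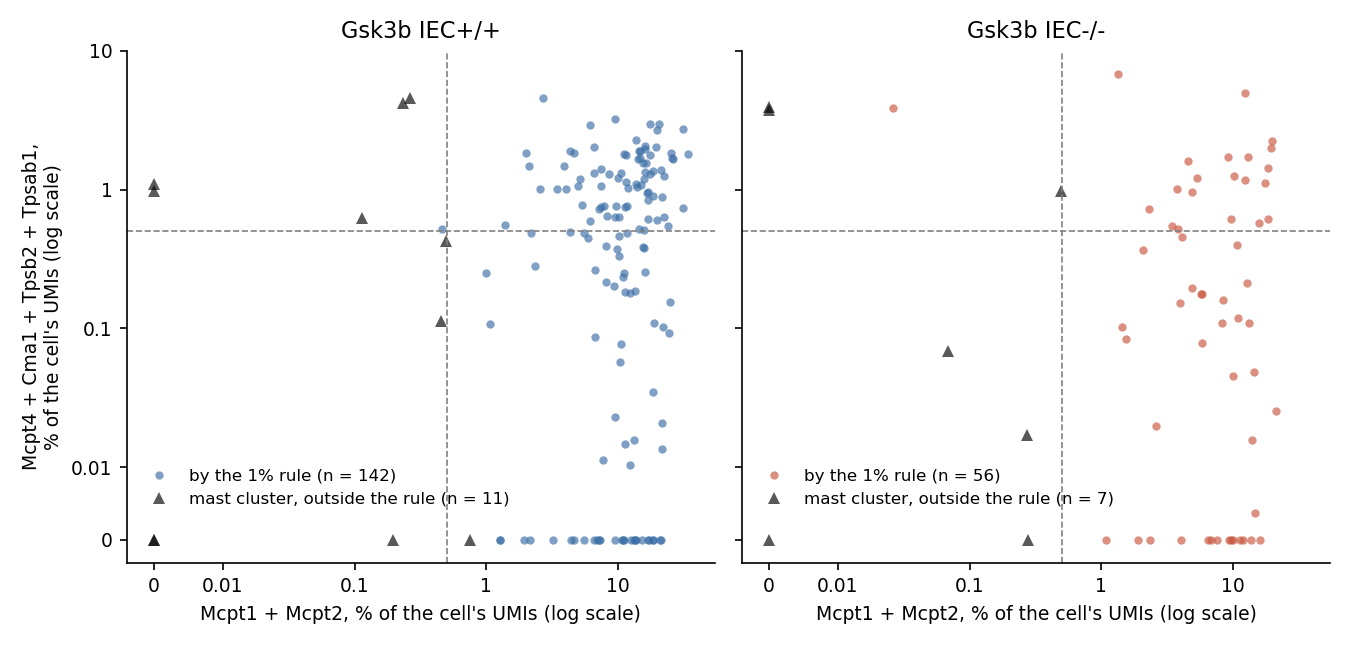
Mucosal (x axis) against connective-tissue (y axis) proteases as a percent of the UMIs of each cell, both on log scales with 0 at the axis end; dashed lines stand at 0.5%. Circles are mast cells by the rule (142 and 56) and triangles are the 11 and 7 cells of the mast cluster outside it, several of which lie at the upper left with connective-tissue proteases and few or no mucosal ones.

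The rule selects for mucosal cells, since Mcpt1 and Mcpt2 dominate its sum, so the mast cluster of an unsupervised clustering was read as well. It held 152 and 62 cells, of which 141 and 55 met the rule. Of the 11 and 7 that did not, 10 and 5 had a UMI of Fcer1a or Kit, the IgE receptor chain and the stem cell factor receptor. The connective-tissue sum was 0.5% or more and above the mucosal sum in 5 of the 11 and 3 of the 7. One cell labelled IEC+/+ with 2294 UMIs held 25 Mcpt4, 49 Cma1 and 28 Tpsb2 UMIs, 6 of Mcpt2, none of Mcpt1, and 3 each of Mrgprb1 and Mrgprb2. One cell labelled IEC-/- with 3363 UMIs held 37 Mcpt4, 55 Cma1, 32 Tpsb2 and 21 Cpa3 UMIs and none of Mcpt1 or Mcpt2. Both cells were singled out after their values were seen. Counting cells of the rule or the cluster together, those with the connective-tissue sum alone were 6 of 153 (3.92%; 1.45% to 8.34%) and 4 of 63 (6.35%; 1.76% to 15.5%).

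Some other cells of the cluster outside the rule had few or none of the 7 proteases, and 1 was high in another. A cell labelled IEC+/+ with 3280 UMIs had 1 Cpa3 UMI and none of the other 6, beside 17 of Hdc, which makes histamine, and 10 of the steroid enzyme gene Cyp11a1. A cell labelled IEC-/- with 4254 UMIs had none of the 7 and 24 of Hdc. Another labelled IEC-/- held 46 UMIs of Mcpt8, a granule protease known from basophils, with 20 of Cpa3 and 16 of the mucosal chymases. These 3 cells too were singled out after their values were seen.

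Across mast cells, the closest pairs were the 2 mucosal chymases and the 2 tryptases, given here as a description of cells that share a library and depth. Spearman's rho of the per-cell share of UMIs was 0.61 for Mcpt1 and Mcpt2 over the 142 cells and 0.71 over the 56. For the tryptases Tpsb2 and Tpsab1 it was 0.55 and 0.76. It was 0.39 and 0.53 for Cma1 and Tpsb2, and 0.39 and 0.44 for Mcpt4 and Cma1. Pairs of different kinds were not all lower than pairs of the same kind. Mcpt2 gave 0.26 and 0.42 with Cma1, and 0.23 and 0.24 with Mcpt4, whereas Mcpt4 and Tpsab1, both connective-tissue genes, gave 0.20 and 0.22. Mcpt1 against Tpsb2 gave -0.08 and -0.31. Cpa3, though part of the rule with Mcpt1, gave 0.04 and -0.09 with Mcpt1 and 0.27 and 0.42 with Tpsb2. Shares of 1 whole constrain each other, so the large mucosal sum bears on all of these values.

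Split at 0.5% connective-tissue UMIs, the 77 and 21 cells above did not have less of the mucosal chymases than the 65 and 35 below. All these cells met the rule, whose sum Mcpt1 and Mcpt2 dominate, so cells with little of both were mostly left out beforehand. The 5 and 3 cells of the mast cluster outside the rule with the connective-tissue sum above the mucosal one were not in this split. Mcpt1 stood at 88005 CPM above and 71354 below in the library labelled IEC+/+, and at 68661 and 61268 in the library labelled IEC-/-. Mcpt2 stood at 68799 and 51083 CPM, and at 56458 and 49128. Cpa3 was at 5816 and 4674 CPM, and at 4933 and 3477. Of all genes with 20 or more mast cell UMIs, 21.6% were higher in the cells above in both libraries and 33.1% lower in both, so a shared direction is common in itself. Mrgprb2, the receptor that marks connective-tissue mast cells, had 7 of its 11 UMIs in the cells above labelled IEC+/+ and 4 of 4 labelled IEC-/-. The related Mrgprb1 had 5 of 6 and 5 of 5 there. These counts are too low for a comparison of levels.

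Between the libraries, 6 of the 7 proteases were lower per mast cell UMI with the label IEC-/- and Mcpt4 was higher. Of the 5141 genes with 20 or more UMIs, 40.8% were lower. With a mast cell rule that used no protease, which also took in 20 and 3 epithelial cells, the count turned: 6 of the 7 were higher and only Tpsb2 was lower. With that rule applied within the mast cluster, 6 were again lower and Mcpt4 higher. The 7 proteases are among the leading genes of that cluster, and 141 of its 152 and 55 of its 62 cells met the 1% rule. This setting therefore brings selection by protease back in and is no independent check. With the 1% rule over all cells, only Tpsb2 of the 7 lay beyond 1.5-fold. Of the 5141 genes with 20 or more UMIs 30.1% did, 11.7% lower and 18.5% higher, so 1 of 7 does not set the proteases apart. The members' median log2 ratio was -0.41, beside 0.11 over all 5141 genes and -0.04 over the 126 genes with 1000 or more UMIs, of which 8 were beyond 1.5-fold.

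Tpsb2 had a log2 ratio of -1.22 (-1.41 to -1.05), a 2.34-fold lower level. With each cell thinned to 1000 UMIs the ratio was -0.39, and with the rule that used no protease -0.20, both within 1.5-fold, whereas as a mean over cells it was -0.78. Cma1 was at -0.54 (-0.75 to -0.34) and Tpsab1 at -0.57 (-0.92 to -0.23), and with the rule that used no protease both turned, to 0.45 and 0.22. Thinning gave -0.19 for Cma1 and 0.07 for Tpsab1, and the mean over cells gave 0.09 for Tpsab1. Mcpt4 was at 0.23 (0.10 to 0.36), and at -0.09 when every barcode with 500 or more UMIs was taken as a cell. The 4 together gave -0.41 (-0.50 to -0.32), and 0.0022 with thinning.

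Among the mast cell proteases of the rule, Mcpt1 had a log2 ratio of -0.32 (-0.34 to -0.29), Mcpt2 of -0.21 (-0.24 to -0.18) and Cpa3 of -0.41 (-0.51 to -0.31). The rule that used no protease turned all 3, to 0.61, 0.71 and 0.56. Within the mast cluster, which the proteases themselves lead, that rule gave -0.33, -0.22 and -0.37. With free RNA subtracted they were -0.21, -0.10 and -0.30. The subtraction takes up to 6.93% and 14.2% of mast cell UMIs out of the totals, which by itself raises every ratio by a like amount. The mucosal sum was 139076 and 115123 CPM, a ratio of -0.27 (-0.29 to -0.25). These are differences of level within mast cells, each smaller than the 2.70-fold difference in the share of mast cells.

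**Figure D3:**
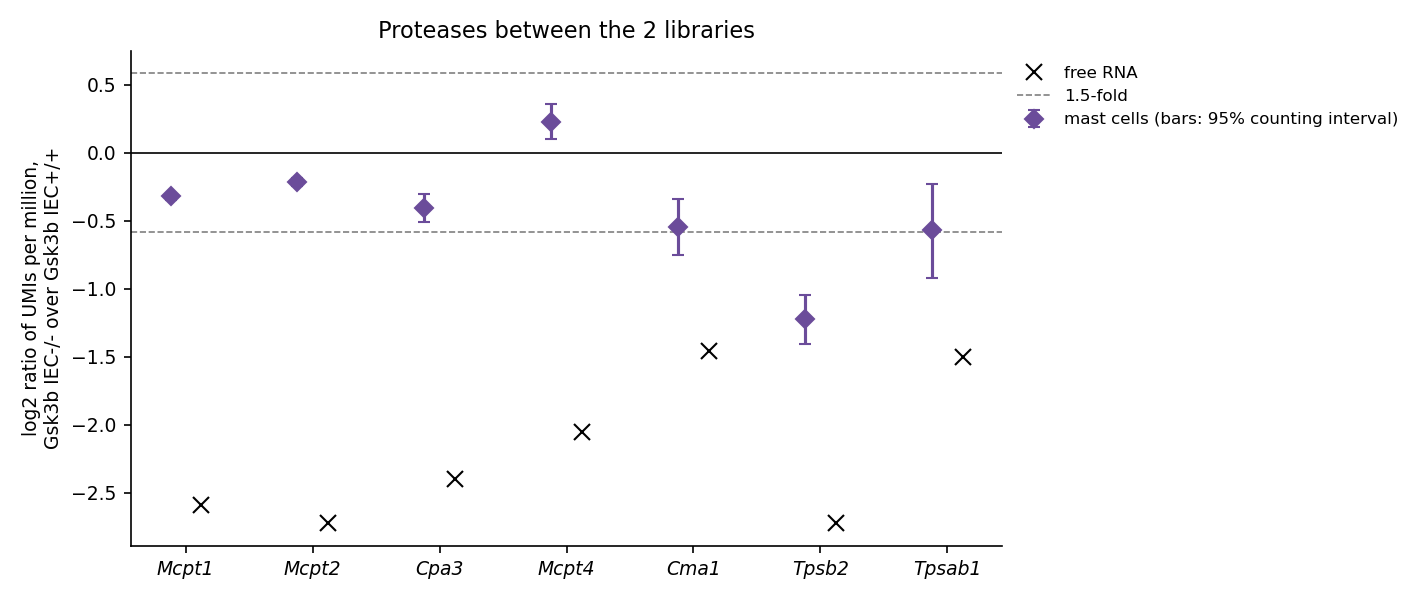
Log2 ratio of CPM, library labelled IEC-/- over library labelled IEC+/+, for each protease in mast cells (diamonds, with 95% counting intervals) and in free RNA (crosses); dashed lines mark 1.5-fold. In mast cells only Tpsb2 passes 1.5-fold. All 7 pass it in free RNA, where the share of all genes that pass was not counted. The free RNA ratios are from barcodes under 100 UMIs and depend on that limit.

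Over the 8 lists of other mast cell genes, 12 of 61 tested were higher and 8 lower beyond 1.5-fold, where 18.5% and 11.7% of all genes were, so the lists together lay near the background. The other genes of the chymase and tryptase loci gave 1 higher and 1 lower of 5 tested. Mcpt9, a chymase gene between Mcpt1 and Mcpt2, stood at 534.7 CPM labelled IEC+/+ and 210.2 labelled IEC-/- (log2 ratio -1.35). Mcpt8 stood at 107.6 and 322.8 (1.59), but 1 cell held 35 of its 86 UMIs in the library labelled IEC-/-, and only 17 and 7 mast cells had any. Of the connective-tissue mast cell genes, only the tryptase Tpsg1 had enough UMIs to be tested, and it was within 1.5-fold at 169.3 and 146.4 CPM. Mrgprb2 had 11 and 4 UMIs.

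Of 10 receptors and transcription factors, 3 were lower and none higher, beside 11.7% lower and 18.5% higher over all genes. The receptor gene Cd200r3 was at 261.0 and 165.1 CPM (-0.66), the adenosine receptor gene Adora3 at 41.1 and 18.8 (-1.13), and Rgs13, a regulator of G protein signalling, at 31.64 and 15.01 (-1.08). Adora3 and Rgs13 rest on 5 and 4 UMIs labelled IEC-/-, and their intervals include 0. Of 9 genes of amines and lipid mediators only Hpgds, the hematopoietic prostaglandin D synthase, lay beyond 1.5-fold, at 158.2 and 266.5 CPM (0.75).

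Of 10 granule and processing genes, Hs3st1, a heparan sulfate sulfotransferase, was lower at 439.8 and 292.7 CPM (-0.59), as was the cathepsin gene Ctsb at 137.6 and 75.1 (-0.87). Ndst1, which sulfates heparan chains, was higher at 19.0 and 37.5 (0.98). Ctsb was lower in these mast cells than in free RNA, where it stood at 388.0 and 333.8 CPM. Ndst1 stood at 25.10 and 30.03 CPM there, near its mast cell level, and its ratio rests on 12 and 10 UMIs with an interval that includes 0 (-0.39 to 2.32). Of 8 homing and TGF-beta genes 2 were higher, the receptor gene Tgfbr1 at 158.2 and 240.2 CPM (0.60) and the integrin gene Itga4 at 6.33 and 67.6 (3.42, from 4 and 18 UMIs in 4 cells of each library).

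Of 12 cytokine genes, 4 were higher and 2 lower, beside the same 18.5% and 11.7%. Ccl7 stood at 121.8 and 213.9 CPM (0.81), in 9 and 5 cells, and Tnf at 90.2 and 221.4 (1.30), beside 194.2 and 168.7 in free RNA. Ccl1 stood at 153.4 and 97.6 (-0.65) and Osm at 87.0 and 37.5 (-1.21), the latter beside 86.0 and 56.9 in free RNA. Of 6 protease inhibitors 3 were higher. Slpi, which inhibits chymase and elastase, stood at 153.4 and 315.3 CPM (1.04), but at 807.1 and 1454 in free RNA, and Spink4 at 189.8 and 379.1 (1.00), but at 1879 and 3827 in free RNA.

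Markers of other cell types in the mast cells were mostly below their free RNA level. The 7 epithelial markers summed to 1553 and 1610 CPM, against 11035 and 12404 in free RNA, and the 7 neutrophil markers to 1626 and 2259, against 8229 and 5429. The 8 dendritic cell markers summed to 6.33 CPM labelled IEC+/+, 5 of them at 0, and all 8 were at 0 labelled IEC-/-. The 2 basophil markers, Mcpt8 among them, were above free RNA at 112.3 and 322.8 CPM against 2.01 and 0.979, with 1 of the 2 at 0 labelled IEC-/-. The 6 endothelial markers were above it at 144.0 and 78.8 CPM against 44.0 and 37.6, with 3 of the 6 at 0 in each library, and the 6 B cell markers were level with it labelled IEC+/+ (31.6 against 31.1) and below it labelled IEC-/- (11.3 against 86.3). The part of these cell types in the protease values was not tested. The 6 plasma cell markers were above it in the first library only, at 5867 and 285.2 CPM against 2179 and 2057. One mast cell labelled IEC+/+ held 2153 UMIs of Igha, 3974 of Igkc and 1276 of Jchain, where the next cell held 6, 8 and 2. Without it the mucosal ratio was -0.32 and the connective-tissue ratio -0.45.

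UMIs of the mast cell proteases were also found in free RNA and in cells of other classes, at higher levels for most of the genes in the library labelled IEC+/+. A UMI of Mcpt1 or Mcpt2 was found in 63.8% of non-mast cells labelled IEC+/+ and 30.2% of those labelled IEC-/-. In free RNA Mcpt1 stood at 1031 and 171.7 CPM, a 6.002-fold difference, and Mcpt2 at 941.8 and 143.0, a 6.59-fold difference. Tpsb2 was 6.60-fold higher in the free RNA of the first library (34.5 and 5.22 CPM), Cpa3 5.28-fold (80.4 and 15.2), Mcpt4 4.16-fold (40.7 and 9.79), Tpsab1 2.83-fold (10.5 and 3.70) and Cma1 2.75-fold (41.8 and 15.2). How many of all genes differ this much in free RNA was not counted. These folds depend on where free RNA is read: from barcodes under 50 UMIs the mucosal log2 ratio was -1.63, against -2.65 from those under 100. Mast cells still held 83.6% and 85.3% of the mucosal UMIs of all cells.

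For whole classes the order of the levels was the same in both libraries: mast cells first, then free RNA, then every other class. Parts of a class can differ, as Cma1 does in 2 epithelial clusters described below. Across the 9 other classes Mcpt1 ran from 61.1 CPM in fibroblasts to 120.0 in neutrophils labelled IEC+/+, and from 14.7 in plasma cells to 34.3 in neutrophils labelled IEC-/-. This was 5.93% to 11.6% of the free RNA level in the first library and 8.589% to 20.002% in the second. Neighbours within that range mostly had overlapping Poisson intervals, as in B cells (71.1 to 136.7) and neutrophils (112.0 to 128.5). Mcpt4 stayed at or below 7.65 and 2.19 CPM in every other class and Cpa3 at or below 7.69 and 3.94.

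**Figure D4:**
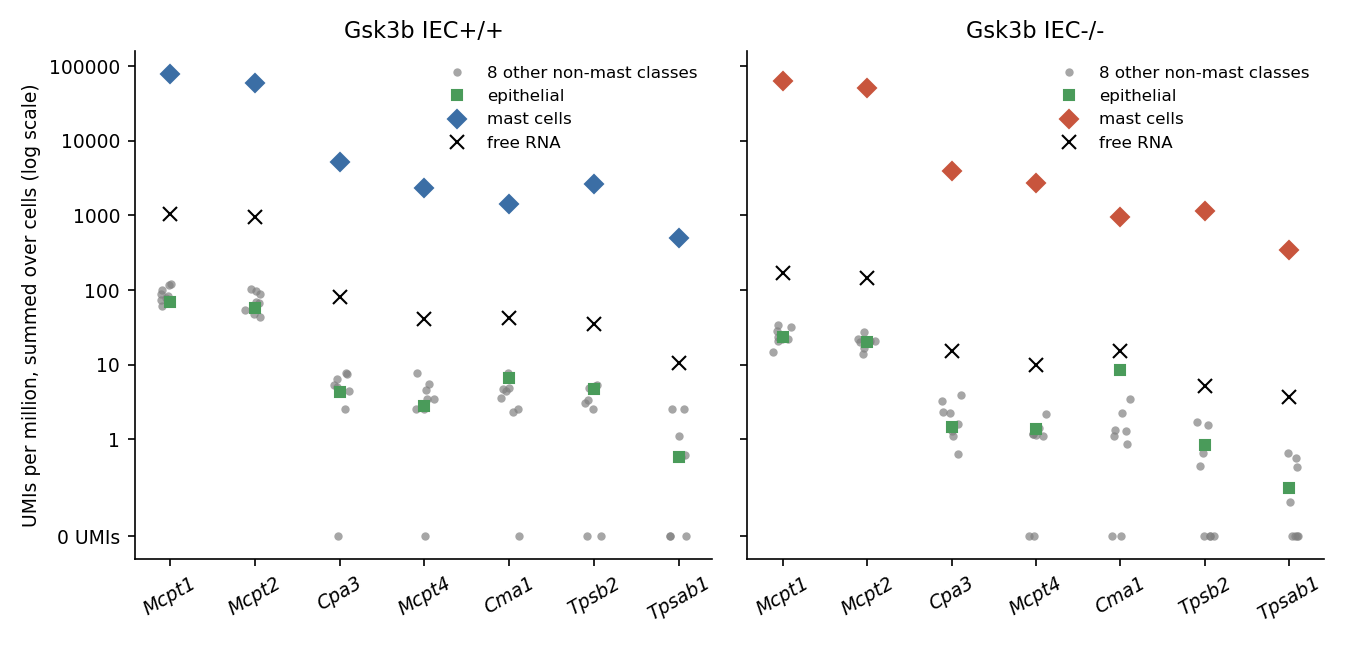
Summed CPM of each protease (log scale) in mast cells, in free RNA, in epithelial cells and in the 8 other cell classes, for each library. Mast cells lie above free RNA and free RNA above every other class for all 7 genes; the epithelial square of Cma1 labelled IEC-/- comes nearest to free RNA.

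Cma1 departed most from the other proteases in the epithelium. Free RNA from 1 source keeps its genes in 1 ratio, and for 100 Mcpt1 UMIs there were 1.78 and 1.52 Cma1 UMIs in mast cells. Epithelial cells held 9.46 and 36.4, free RNA 4.06 and 8.87, and the other non-mast cells 3.69 and 5.96. Tpsb2 was higher in epithelial cells too, but by less, at 3.33 and 1.78 per 100 in mast cells and 6.71 and 3.59 in epithelial cells. Mcpt4 was nearer to level, at 2.96 and 4.32 per 100 in mast cells and 4.05 and 5.75 in epithelial cells. Cpa3 was level, at 6.58 and 6.20 against 6.22 and 6.20.

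The epithelial Cma1 was concentrated in 2 clusters, a finding chosen for description after its values were seen. One, led by the goblet cell genes Fcgbp, Tff3 and Muc2, stood at 56.4 CPM labelled IEC+/+ (50.2 to 63.1) and 53.3 labelled IEC-/- (49.1 to 57.8). The other, led by the Paneth cell defensins Defa21, Defa24 and Defa22, stood at 74.6 (59.3 to 92.8) and 45.1 (30.5 to 64.4), so each pair of intervals overlapped. In free RNA Cma1 stood at 41.8 and 15.2 CPM, below both clusters in each library. Without their cells of 5 or more Cma1 UMIs, described next, the 2 clusters labelled IEC+/+ stood at 20.7 and 22.5 CPM, below free RNA. Those labelled IEC-/- then stood at 24.6 and 31.1 CPM, still above it. Reads of Gm48934, which shares sequence with the Cma1 transcript end, were not counted separately, and their part here was not tested. No other epithelial cluster of 20 or more cells was above 6.74 and 4.11 CPM.

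Single epithelial cells with 5 or more Cma1 UMIs numbered 15 labelled IEC+/+ (11 in the first cluster and 4 in the second) and 27 labelled IEC-/- (25, 1, and 1 in the cluster led by Fut9, Fstl4 and Krt15). They held 39.3% and 44.6% of all epithelial Cma1 UMIs, with up to 46 and 47 in a cell. Those 15 cells had 259 Cma1 UMIs with 52 of Mcpt1, 2 of Mcpt4, 4 of Cpa3 and 2 of Tpsb2. The 27 had 362 with 28 of Mcpt1, none of Mcpt4, 2 of Cpa3 and 2 of Tpsb2. For 100 Cma1 UMIs that is 20.1 and 7.73 of Mcpt1, where mast cells held 5628 and 6572, so these cells lacked the mast cell pattern. They were deep, with medians of 38996 and 33967 UMIs against 19448 and 19019 over epithelial cells.

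Within the Fcgbp-led cluster, the genes higher in those cells than in cells without a Cma1 UMI in both libraries were led by Hamp2, a hepcidin gene, at 259.9 against 17.7 CPM labelled IEC+/+ and 134.0 against 10.6 labelled IEC-/-. Defa22 followed, at 297.7 against 34.9 and 331.1 against 46.4, then Ang4, a Paneth cell ribonuclease, at 7801 against 1353 and 3878 against 911.5. Lyz1, the Paneth cell lysozyme, stood at 47199 against 13201 and 41267 against 8687, and the matrix protease Mmp7, which processes defensins, at 10341 against 3941 and 6097 against 1718. The cells were chosen by Cma1, and the genes by their fold, so no test is attached.

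Tpsb2 was also uneven over the epithelium, likewise described after its values were seen. The cluster led by Pnliprp2, Ptn and Wdr49 stood at 12.5 CPM (10.8 to 14.3), against 2.23 to 9.74 in the other epithelial clusters of 20 or more cells (the highest of them with an interval of 5.19 to 16.7, which overlaps), and at 2.59 (1.42 to 4.35) labelled IEC-/-. In that cluster 10 cells held 5 or more Tpsb2 UMIs, up to 29, and 112 together, with 1 Cpa3 UMI, 18 of Mcpt1 and none of Tpsab1 or Mcpt4. Without these 10 cells the cluster was at 5.95 CPM. Genes highest in them against the 532 cells without a Tpsb2 UMI were Neb, the nebulin gene (171.7 against 7.75 CPM), Dgki, a diacylglycerol kinase gene (175.0 against 9.66), and Npy, which encodes a neuropeptide (898.3 against 69.6). Pnliprp2 itself stood at 7513 against 835.2 CPM.

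A single epithelial-class cell labelled IEC-/- with 100198 UMIs held 224 Mcpt1, 124 Mcpt2, 31 Mcpt4, 13 Cpa3, 5 Tpsb2 and 5 Tpsab1 UMIs, the protease set of a mast cell in 1 very deep barcode. One labelled IEC+/+ with 44722 UMIs held 193 Mcpt1, 97 Mcpt2 and 17 Cpa3 UMIs. Both passed doublet removal, and whether they are doublets was not tested.

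**Figure D5:**
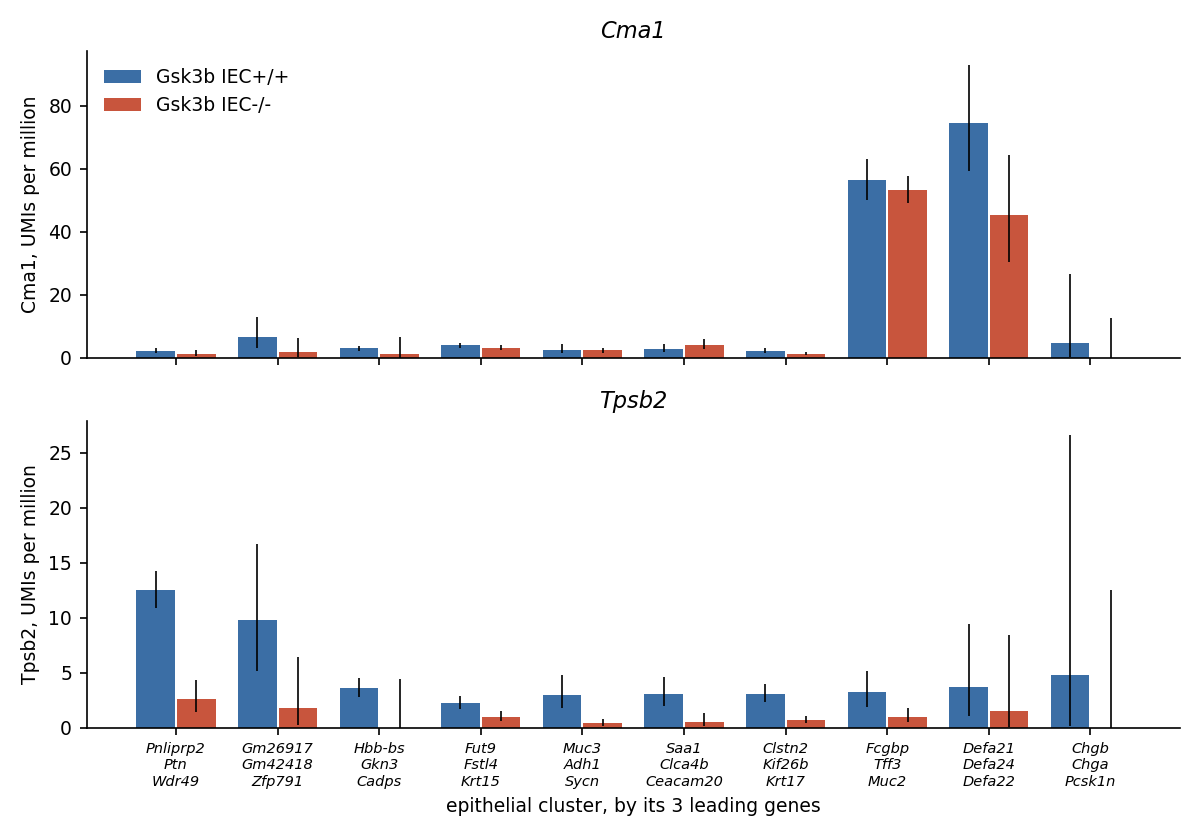
CPM of Cma1 (top) and Tpsb2 (bottom) in the 10 epithelial clusters of each library, each cluster named by its 3 leading genes; bars start at 0 and lines are exact Poisson 95% intervals. Cma1 stands out in the Fcgbp-led and defensin-led clusters of both libraries, and Tpsb2 is highest in the Pnliprp2-led cluster labelled IEC+/+, where the line overlaps those of the Gm26917-led and Chgb-led clusters.

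The genes whose level across cell classes was most like the summed proteases were ranked by Pearson's r of log2(CPM + 1) over 20 points (10 classes in each of 2 libraries), among 2462 genes with 50 or more mast cell UMIs. Points of 1 library share their free RNA, and the mast cell points dominate any such value, so it is a description. Among the 8 highest were Fcer1a (0.972), Cyp11a1 (0.971), Cma2 (0.963), Mcpt9 (0.962), Mcpt8 (0.946), Atp8b5 (0.945) and Hs6st2 (0.944). Fcer1a, the ligand-binding chain of the IgE receptor, stood at 1234 and 998.3 CPM in mast cells and at no more than 5.13 in any other class. Cma2, the chymase gene next to Cma1, stood at 409.7 and 315.3.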

How the data were processed

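Single-cell RNA-seq (10x Genomics 3′ v3) was made from colon tumours, 1 library per genotype label. The authors deposited raw UMI counts, 1 matrix per library over 32285 genes and all barcodes, made with Cell Ranger 4 per the file headers. The build mm10 and Seurat, with no role given, come from the submitters' processing notes. The 2 libraries hold 164574326 and 156641780 counts. Barcodes with 500 or more UMIs were tested against free RNA (barcodes under 100 UMIs, 10000 Monte Carlo draws, false discovery rate 0.001), giving 12318 and 13184 called. Barcodes were then dropped below 200 genes or above 25% mitochondrial UMIs (1465 and 1529 by the latter), then the highest Scrublet scores at 0.8% per 1000 cells (942 and 1087), leaving 9908 and 10568. Scrublet's own threshold marked 206 and 396. Cells were normalised and clustered with scanpy 1.11.5 (2000 variable genes, 30 components, 15 neighbours, Leiden resolution 1), and a cluster was named from at least 3 markers of a listed cell type. The list of basophil markers was left out of this naming, so no cluster could be named basophil.

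For each class the counts of its cells were added up and scaled to CPM. With 1 library per label there is no replicate and no test. Shares have Clopper-Pearson, levels exact Poisson, and log2 ratios exact conditional binomial 95% intervals, for counting error only, and a share of 0 is bounded by 3 counts. PCR copies are collapsed by UMI. A count of 0 in a ratio was set to 3. Genes were called different beyond 1.5-fold with 20 or more UMIs in mast cells. The ratio code was tested on simulated counts. The members and gene lists were chosen with earlier results of these data known. Named are all 7 proteases, from each list up to 4 genes beyond 1.5-fold with the most UMIs or otherwise the 2 with the most UMIs, genes whose absence defines a pattern, and the 8 genes most alike; 2 genes that this rule names are not reported here. Mcptl and Mrgprb13 of the lists matched no symbol here. Alternatives covered cell calling, doublets, the mast rule, depth, scaling and free RNA.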

Additional observations from a re-analysis of the deposited data

How the results depend on the processing

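The lower mast cell share labelled IEC-/- held in all 10 alternatives run (log2 ratio -1.58 to -1.39), and the share of mast cells with a connective-tissue protease stayed within its interval in all 11. The level ratios moved beyond their narrow counting intervals. The mucosal ratio (-0.27) was -0.41 with every barcode of 500 or more UMIs, -0.24 with a 10% mitochondrial limit, -0.21 with the rule at 0.5%, -0.35 with thinning to 1000 UMIs, -0.32 without the 7 proteases in CPM, -0.46 as a mean over cells and -0.16 with free RNA subtracted. Chosen after seeing the data, it was -0.32 in the mast cluster, -0.35 without the top cell of each library and -0.32 without the immunoglobulin-rich cell. The connective-tissue ratio (-0.41) was -0.69 with 500 or more UMIs, -0.58 with doublets kept, -0.27 and -0.56 with the rule at 0.5% and 2%, 0.0022 with thinning, -0.20 as a mean over cells and -0.30 with free RNA subtracted. The Cpa3 ratio (-0.41) was -0.68, -0.30 and -0.30 with 500 or more UMIs, the rule at 0.5% and free RNA subtracted. A rule without proteases turned all 3, to 0.65, 0.58 and 0.56. It took in 20 epithelial cells of 140 labelled IEC+/+ and 3 of 50 labelled IEC-/-. Within the mast cluster, which the proteases themselves lead, the same rule gave -0.28, -0.38 and -0.37. Free RNA from barcodes under 50 UMIs gave a mucosal ratio of -1.63 in place of -2.65. Cells with both patterns labelled IEC+/+ (53.5%) were 67.6% and 36.6% at pattern levels of 0.2% and 1%, and labelled IEC-/- (35.7%) 23.2% at 1%. Genes beyond 1.5-fold (1548) numbered 3978 with the protease-free rule, 364 with thinning, 2329 as a mean over cells, 475 with 50 or more UMIs and 7305 with no minimum. The protease-free rule, thinning and the last 2 also change how many genes are tested, so these counts cannot be compared directly. The cause of the changes was not tested. No paired analysis was possible because each label has 1 library. No library could be left out, and 56 cells labelled IEC-/- limit every share.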
